A study of Rattus norvegicus with 46 samples.

Results

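The collagens, the most abundant proteins of the extracellular matrix, are described here in rat kidney after ischemia-reperfusion (IR). Members were taken by gene symbol alone: every probe set whose single annotated symbol reads Col, a number, the letter a and a number. This gave 43 probe sets for 40 genes, of 29214 probe sets and 17245 symbols on the array. Where a gene had 2 probe sets (Col4a2, Col24a1 and Col19a1), the brighter over the 46 arrays was used. 1 further probe set names Col20a1 together with Arfgap1 and was left out.

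The arrays (Affymetrix Rat Gene 1.1 ST) measured kidney RNA of 46 male Wister rats of 200 to 300 g, 1 array per rat. The 9 IR groups received saline (Vehicle), the glucocorticoid dexamethasone (Dex, 3 mg/kg) or the histone deacetylase inhibitor valproic acid (VPA, 150 mg/kg) by the intraperitoneal route, 30 min ahead of surgery. All of them then had the left renal artery clamped for 45 min and, once blood flow was restored, the right kidney removed, and were studied after 3, 24 or 120 h of reperfusion. The naive rats had neither injury nor treatment and were killed directly after anesthesia. A difference from naive therefore holds the surgery, the injection and the later care as well as the injury. The 3 h rats stayed under anesthesia until killed, while the 24 and 120 h rats woke and were given repeated buprenorphine. By the paper, the 3 h studies came first and those of 24 and 120 h later. Time of reperfusion thus cannot be told apart from this care and order. There were 5 rats each in the groups naive, Vehicle 3 h, Vehicle 120 h, Dex 24 h, VPA 3 h and VPA 24 h. The groups Vehicle 24 h, Dex 3 h, Dex 120 h and VPA 120 h had 4 rats each. Each rat gave 1 value at 1 time, and the 9 comparisons with naive share the same 5 naive rats.

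A collagen is built from 3 polypeptide chains wound into a triple helix, and each gene here encodes 1 kind of chain. Fibrillar collagens (types I, III and V in most organs) form the tensile fibers that fill the space between tubules, and their build-up is a hallmark of kidney fibrosis. Type IV collagen forms the sheet-like network of basement membranes. Its α1 and α2 chains occur in nearly all of them, while the α3, α4 and α5 chains make the mature network of the glomerular basement membrane and of some tubules, and their loss by mutation causes Alport syndrome in humans. The remaining types decorate fibrils, form beaded microfibrils, span cell membranes or anchor epithelia.

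The 6 type IV genes lie in 3 head-to-head pairs on the GRCr8 assembly, each pair transcribed outward from a common stretch of DNA. The starts of Col4a2 and Col4a1 are 76 bases apart on chromosome 16, those of Col4a4 and Col4a3 412 bases apart on chromosome 9, and those of Col4a6 and Col4a5 1414 bases apart on the X chromosome. The stretch between Col4a2 and Col4a1 and the 250 bases before the start of Col4a3 are shown because the first pair rose after injury where the second fell, Col1a2 as a chain of the main fibrillar collagen, and Col8a1 as the chain with the largest change. The sequences are those of RefSeq for GRCr8, which held a promoter for 33 of the 40 genes. All are read 5′ to 3′ on the plus strand and end at the base before the start of the gene named (of Col4a1 for the shared stretch, which is chr16:84885521-84885596). The others are chr9:91323740-91323989 for Col4a3, chr4:33518307-33518556 for Col1a2 and chr11:56246532-56246781 for Col8a1.
Col4a2 to Col4a1: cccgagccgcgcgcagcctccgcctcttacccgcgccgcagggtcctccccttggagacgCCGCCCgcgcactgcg
Col4a3: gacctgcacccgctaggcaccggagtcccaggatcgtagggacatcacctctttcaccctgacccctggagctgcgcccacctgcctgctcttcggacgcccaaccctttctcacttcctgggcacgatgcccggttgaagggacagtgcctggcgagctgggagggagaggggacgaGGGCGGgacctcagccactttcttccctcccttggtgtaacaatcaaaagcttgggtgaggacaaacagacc
Col1a2: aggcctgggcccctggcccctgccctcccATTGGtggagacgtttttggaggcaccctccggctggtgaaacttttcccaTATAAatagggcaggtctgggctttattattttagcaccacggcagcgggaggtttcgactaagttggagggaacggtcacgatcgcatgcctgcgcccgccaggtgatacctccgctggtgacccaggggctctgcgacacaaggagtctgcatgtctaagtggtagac
Col8a1: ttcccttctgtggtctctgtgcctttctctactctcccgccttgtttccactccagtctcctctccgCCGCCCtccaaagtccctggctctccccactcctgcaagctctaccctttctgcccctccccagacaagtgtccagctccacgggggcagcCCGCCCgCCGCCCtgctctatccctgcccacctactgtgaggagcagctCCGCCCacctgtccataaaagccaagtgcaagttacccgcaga
Capitals mark 3 motifs, each searched on both strands and so also marked where its reverse complement stands. They are the CCAAT box, the GC box, spelled GGGCGG, and the core of the TATA box, spelled TATAA. The stretch between Col4a2 and Col4a1 held 1 GC box, a motif found in 18.1% of 33469 promoters over their last 76 bases. Col4a3 held 1 GC box and Col8a1 held 4, against a GC box in 30.5% of promoters over 250 bases. Col1a2 held 1 CCAAT (in 34% of promoters) and 1 TATAA (in 24%). These matches are letters in a window and were not tied to any measured value.

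Values below are iterPLIER signals as deposited, on a linear scale, and changes are differences of log2(signal + 16) between group means with the standard error (SE) of the limma fit over all 10 groups. The 50% of probe sets with the lower SD over the arrays were left out of the tests (14607 tested), which kept 29 of the 40 collagen genes. To be called higher or lower, a gene had to change 2-fold or more, with a p below 0.05 once adjusted over all tested probe sets by the method of Benjamini and Hochberg. The 11 genes left out were Col2a1, Col5a3, Col4a6, Col6a4, Col8a2, Col10a1, Col9a2, Col9a3, Col23a1, Col26a1 and Col28a1. Their changes from naive ran from -0.37 (Col28a1, Vehicle 3 h) to 0.62 (Col9a3, Vehicle 3 h). The signals do not compare one gene with another, since each probe set has its own response. In whole kidney RNA, more cells of a type and more RNA per cell cannot be told apart.

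5 of the 27 arrays taken at 24 or 120 h stood apart from the rest in the injury genes. In these 5, Havcr1 (which encodes KIM-1, a protein of injured proximal tubule) had a signal of 17.8 to 756, against 2531 to 5269 in the other 22 and 25.5 to 72.0 in naive kidneys. Lcn2, which encodes lipocalin-2, was at 158 to 941 in the same 5 and at 1105 to 3967 in the other 22. They are Vehicle 24 h replicate 1, Vehicle 120 h replicate 1, Dex 24 h replicate 4 and VPA 120 h replicates 2 and 3. The 2 at 24 h lay between naive and the rest, with Havcr1 at 508 and 756 and Lcn2 at 256 and 941, above every naive kidney. The 3 at 120 h had Havcr1 at 17.8, 95.7 and 72.5, and Lcn2 at 158, 163 and 179 against 44.8 to 170 in naive, and so resembled naive kidneys. The counts of calls and the values of the leading chains are given with and without these 5 arrays. Leaving them out was decided after seeing the data, by an injury gene, and keeps 2 rats in VPA 120 h. The calls and p-values of the fits without them therefore cannot be taken at face value. The 3 h arrays were not sorted in this way. There, Vehicle replicate 1 had Havcr1 at 93.0 against 396 to 724 in the rest of its group. VPA replicate 3 had 17.3 against 122 to 440, below every naive kidney. The median signal of an array was 64.7 to 87.5 and its lower quartile 19.9 to 37.6, both highest in Vehicle 3 h replicate 1. Changes of dim chains such as Col24a1 and Col7a1 are damped by the offset of 16.

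**Figure D1:**
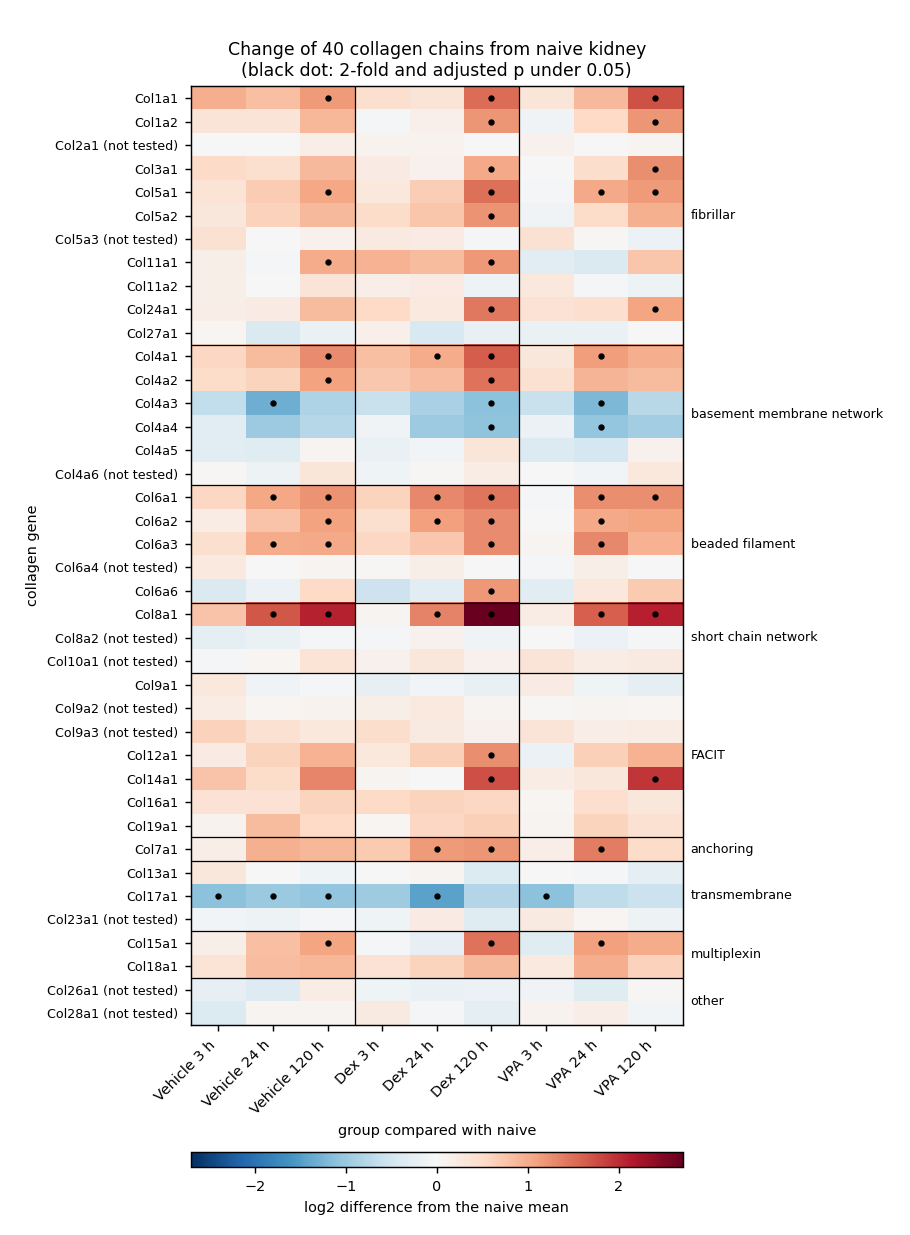
Each row is 1 of the 40 collagen genes, by structural class, and each column 1 IR group. Color gives the log2 difference from the naive mean, and black dots mark called changes. Dots are most frequent in the Dex 120 h column, with 18 rises and 2 falls.

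Few chains were called at 3 h. In the Vehicle group 0 collagen genes were called higher (3.18% of all tested probe sets were) and 1 was called lower (0.459% were), with 9 of 40 at an unadjusted p under 0.05. The Dex group had 0 higher (4.44%) and 0 lower (0.657%), with 9 at an unadjusted p under 0.05. The VPA group had 0 higher (1.43%) and 1 lower (0.459%), with 4 at an unadjusted p under 0.05. Of the 14607 tested probe sets, 4427, 4371 and 4031 were at that p in Vehicle, Dex and VPA kidneys. In each group this was a larger share than that of the 40 collagen genes. The gene called lower, in both Vehicle and VPA kidneys, was Col17a1. The median change over the 40 genes was 0.21, 0.14 and 0.02 in Vehicle, Dex and VPA kidneys, beside 0.02, 0.01 and 0.07 over all 29214 probe sets.

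By 24 h some network and microfibril chains were called higher. The α3 chain of type IV was called lower in Vehicle and VPA kidneys and the α4 chain in VPA kidneys alone. In Vehicle kidneys 3 genes were called higher (background 4.79%) and 2 lower (4.23%). Dex kidneys had 5 called higher (2.59%) and 1 lower (2.59%), and VPA kidneys had 8 higher (5.92%) and 2 lower (3.55%). The counts called lower, out of 40 genes, were near the background share in each group. The other calls lower, in Vehicle and Dex kidneys, were of Col17a1. The fibrillar chains of types I and III were called in none of the groups at 24 h, although without the arrays of low Havcr1 Col1a1 was called in Vehicle kidneys (1.04 ± 0.36, adjusted p = 0.0219). Without the arrays of low Havcr1 the Vehicle count became 9 higher and 2 lower, of 28 members tested (background 8.23% and 6.72%), 4 of the 5 calls being kept, and the Dex count 6 higher and 3 lower (4.37% and 3.87%). Leaving out Vehicle 24 h replicate 1 alone gave 10 calls in the Vehicle group, and leaving out replicate 2, 3 or 4 gave 3.

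The 120 h kidneys had the most collagen genes called higher within the Vehicle and Dex groups. In Dex kidneys 18 of 40 were called higher (background 4.76%) and 2 lower (3.73%). The count called lower was near the background share. In Vehicle kidneys 10 were called higher (1.83%) and 1 lower (1.51%). VPA kidneys had 8 called higher (0.493%) and 0 lower (0.192%), with 21 at an unadjusted p under 0.05. Of the 14607 tested probe sets, 3366 were at that p in VPA kidneys. The median change over the 40 genes was 0.60 in Dex, 0.54 in Vehicle and 0.36 in VPA kidneys, beside -0.02, 0.07 and 0.01 over all probe sets. By structural class, the 11 fibrillar genes had a median change from naive of 1.16 in Dex kidneys at 120 h with 7 called higher, the 5 beaded filament (type VI) genes 1.27 with 4 called higher, the 7 FACIT genes 0.57 with 2 called higher, and the 6 basement membrane genes 0.26 with 2 called higher and 2 lower. With the arrays of low Havcr1 left out, Vehicle at 120 h had 18 genes called higher and 3 lower (3.57% and 3.15%), and VPA, then with 2 rats, 18 higher and 2 lower (9.42% and 7.76%). All 11 calls of the Vehicle group and all 8 of the VPA group were kept, and 10 and 12 were gained. The VPA calls at 120 h are fragile in the other direction too, since all 8 were lost when naive replicate 2, 3, 4 or 5 or VPA 120 h replicate 1 or 4 was left out. They also dropped to 0 with no SD filter. Vehicle 120 h had 4 calls in place of 11 without replicate 2.

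Among the fibrillar chains, types I, III and V were higher at 120 h. Col1a1 encodes the α1 chain of type I collagen, the main fiber protein of scars. Its signal in naive kidneys was 684, 232, 417, 489 and 406 in order of replicate. At 120 h it was 374, 1699, 1425, 570 and 1553 in Vehicle, 1059, 1162, 1712 and 1097 in Dex, and 2170, 749, 2096 and 1216 in VPA kidneys. Every Dex and VPA value lay above every naive one, while Vehicle replicates 1 and 4 lay within the naive range. The change was 1.51 ± 0.39 (2.86-fold, adjusted p = 0.00531) in Dex, 1.72 ± 0.39 (3.30-fold, adjusted p = 0.0319) in VPA and 1.16 ± 0.37 (2.23-fold, adjusted p = 0.0354) in Vehicle kidneys. The Vehicle call of Col1a1 was lost when any of 7 of its 10 arrays was left out. Without the arrays of low Havcr1 the Vehicle change was 1.49 ± 0.33 and the VPA change 1.91 ± 0.42, both called.

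Earlier, Col1a1 was uneven within the Vehicle group at 3 h, at 646, 1348, 604, 521 and 1638. Replicates 2 and 5 stood above all naive kidneys, and the change of 0.99 ± 0.37 missed the threshold (adjusted p = 0.0555). The same 2 rats had the highest Col3a1 of their group, 1318 and 1563, against 508 to 637 in the other 3. At 24 h Col1a1 ran from 464 to 1018 in Vehicle, 282 to 753 in Dex and 569 to 1268 in VPA kidneys, overlapping naive in each group.

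Col1a2, the α2 chain that pairs with Col1a1 in type I collagen, had signals of 1263, 731, 901, 902 and 869 in naive kidneys. At 120 h these were 1855, 2014, 2716 and 2043 in Dex and 3240, 1218, 2673 and 1960 in VPA kidneys. All Dex values lay above naive, and VPA replicate 2 lay just inside the naive range. Col1a2 rose by 1.20 ± 0.31 in both groups (2.30-fold, adjusted p = 0.00544 for Dex and 0.0450 for VPA). In Vehicle kidneys the values were 846, 2785, 2491, 979 and 2557, and the change of 0.89 ± 0.30 passed the adjusted p (0.0410) but not the 2-fold limit. Col1a2 was called without the arrays of low Havcr1 in Vehicle (1.14 ± 0.27) and VPA kidneys (1.44 ± 0.34).

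Col3a1 encodes the single chain of type III collagen, which forms thin fibers together with type I. It was at 437 to 880 in naive kidneys and at 1178, 1265, 1422 and 1043 in Dex kidneys at 120 h, with no overlap (change 1.03 ± 0.34, adjusted p = 0.0225). The VPA values were 1713, 792, 2456 and 1246, of which only replicate 2 fell below the highest naive kidney (change 1.26 ± 0.34, adjusted p = 0.0481). Vehicle kidneys at 120 h, at 590, 1860, 1476, 622 and 1500, split into 3 high and 2 naive-like rats, and the change of 0.87 ± 0.32 was not called (adjusted p = 0.0612). With the arrays of low Havcr1 left out, Col3a1 was called in Vehicle (1.09 ± 0.31) and VPA kidneys (1.29 ± 0.38).

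Col5a1 and Col5a2 encode type V chains, which set the start and width of type I fibrils. The third type V gene, Col5a3, was among those not tested. Col5a1 was at 247, 174, 294, 247 and 266 in naive kidneys and at 672, 703, 803 and 659 in Dex 120 h kidneys. It was called higher at 120 h in the Dex group (1.49 ± 0.28, adjusted p = 0.00059), VPA (1.15 ± 0.28, adjusted p = 0.0397) and Vehicle kidneys (1.04 ± 0.26, adjusted p = 0.0125), and at 24 h in VPA kidneys (1.03 ± 0.26, adjusted p = 0.00254). Its VPA 24 h values, 621, 325, 569, 604 and 506, all lay above naive. Col5a2 was called at 120 h in Dex kidneys (1.21 ± 0.22, adjusted p = 0.000519) and passed the adjusted p below 2-fold in Vehicle (0.88 ± 0.21) and VPA kidneys (0.97 ± 0.22). Without the arrays of low Havcr1 the Vehicle and VPA changes at 120 h were 1.28 ± 0.21 and 1.56 ± 0.26 for Col5a1 and 1.12 ± 0.17 and 1.36 ± 0.21 for Col5a2, all called.

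Col11a1, a minor fibril chain best known from cartilage, had a course of its own among the fibrillar genes. In naive kidneys it was at 117, 116, 138, 141 and 125. At 24 h it was at 177, 115, 107 and 102 in Vehicle and at 113, 92.0, 82.8, 119 and 65.2 in VPA kidneys, but at 128, 387, 260, 180 and 340 in Dex kidneys. The Dex kidneys already stood above naive at 3 h, at 211, 296, 247 and 279 (change 0.93 ± 0.26, adjusted p = 0.00763, below 2-fold). At 120 h Col11a1 was called higher in Vehicle (1.01 ± 0.24, adjusted p = 0.00917) and Dex kidneys (1.16 ± 0.26, adjusted p = 0.00172). Of 4 genes listed as cartilage markers, 3 of them tested, Sox9 was called higher in Dex kidneys at 3 h (1.20 ± 0.32). It was not called there at 24 h (-0.66 ± 0.30) or at 120 h (0.91 ± 0.32), and it was called between 24 and 120 h (1.57 ± 0.32). Whether these 4 genes mark cartilage in injured kidney was not tested. Their sum was 626 to 1195 in naive kidneys. In Dex kidneys it was 1423 to 1617 at 3 h, 452 to 755 at 24 h and 951 to 1519 at 120 h. In Vehicle kidneys it was 954 to 1361 at 3 h, 473 to 1089 at 24 h and 582 to 1599 at 120 h. In VPA kidneys it was 803 to 1871, 663 to 846 and 777 to 1549. High sums at 3 and 120 h were thus not particular to Dex, and the part of these genes in Col11a1 was not tested. Col24a1, another minor fibrillar chain, was dim, with 4.7 to 14.9 in naive kidneys and 61.5, 32.6, 62.1 and 46.1 at 120 h in Dex kidneys. It was called higher at 120 h in the Dex group (1.42 ± 0.28, adjusted p = 0.000716) and the VPA group (1.06 ± 0.28, adjusted p = 0.0461), the latter from values of 50.1, 14.8, 10.6 and 107 that overlapped naive. The VPA change of Col24a1 was 1.88 ± 0.24 without the arrays of low Havcr1. The second Col24a1 probe set gave 1.36 and 1.05. Col27a1 and Col11a2 were called in no group.

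**Figure D2:**
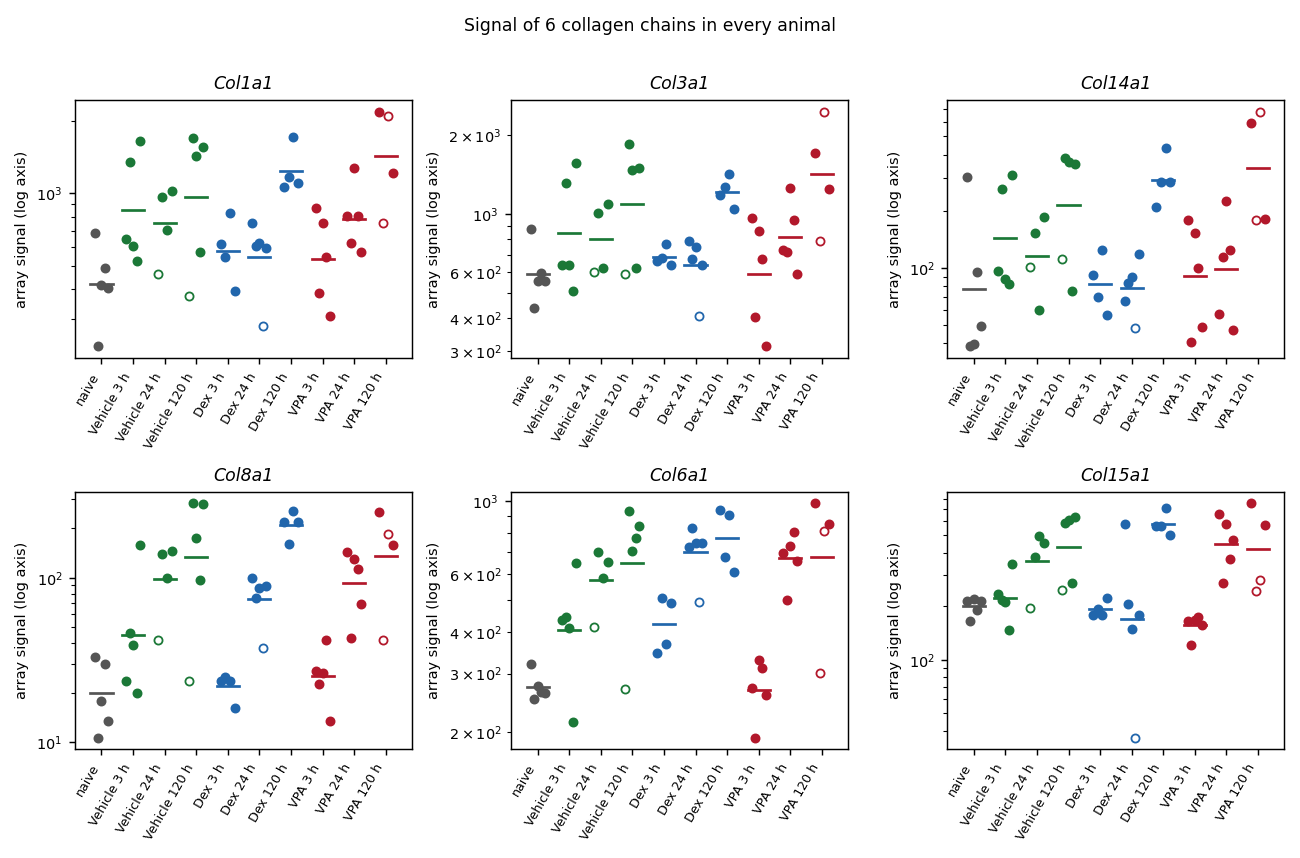
Each point is the signal of 1 rat on a log axis, with the groups along the horizontal axis and a line at the mean of log2(signal + 16), turned back to signal. Open points are the 5 arrays of 24 or 120 h with low Havcr1, and VPA 120 h holds 1 open point high in Col1a1, Col3a1 and Col14a1 (2096, 2456 and 675) and 1 low.

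The FACIT collagens sit on the surface of fibrils and link them to their surroundings. Col14a1, a FACIT chain of type I fibrils, was at 305, 38.6, 39.5, 95.9 and 49.2 in naive kidneys, where replicate 1 stood far above the rest. At 120 h it was at 211, 285, 436 and 286 in Dex and at 593, 181, 675 and 182 in VPA kidneys. Both groups overlapped naive only through naive replicate 1. Col14a1 rose by 1.74 ± 0.50 (3.33-fold, adjusted p = 0.0108) and 1.94 ± 0.50 (3.83-fold, adjusted p = 0.0450). Vehicle kidneys at 120 h, at 111, 386, 365, 76.1 and 357, gave 1.31 ± 0.47, which was not called (adjusted p = 0.0572). Without the arrays of low Havcr1 the Vehicle change of Col14a1 was called (1.53 ± 0.50, adjusted p = 0.0182), and the VPA change was 1.90 ± 0.62. In 6 of the 10 groups the rat highest in Col14a1 was also highest in the summed signal of 5 adipocyte markers (Adipoq, Cfd, Cidec, Lep and Plin1). In naive replicate 1 that sum was 1926 against 472 to 667 in the other 4, and in VPA 120 h replicate 3 it was 1731 against 187 to 975 in the other 3. In Vehicle 3 h replicate 5, which was also highest of its group in Col1a1, the sum was 2686. The rest of that group had 517 to 1010, with 693 in replicate 2, the next highest in Col1a1. In Dex kidneys at 120 h the rat highest in Col14a1, replicate 3, had the lowest sum (289, within 289 to 431). The part of perirenal fat in Col14a1 and in the type I and III chains was not tested.

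Col12a1, the brightest FACIT probe set, was at 657 to 1183 in naive kidneys and at 2023, 1764, 2521 and 2240 in Dex kidneys at 120 h (1.26 ± 0.24, adjusted p = 0.000576). Vehicle (0.94 ± 0.22) and VPA kidneys (0.94 ± 0.24) passed the adjusted p but not the 2-fold limit. Col16a1, Col9a1 and Col19a1 were called nowhere. Col19a1 was at 383, 665, 667 and 624 in Vehicle kidneys at 24 h, all above the naive range of 238 to 360 (0.86 ± 0.21, adjusted p = 0.00259). Its second probe set, which was too steady to be tested, gave 0.18 there.

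Within type IV collagen, the means of Col4a1 and Col4a2 were above naive after IR, while those of Col4a3 and Col4a4 were below it. The counts of collagen genes called lower, which include these falls, were near the background share at 24 h and in Dex kidneys at 120 h. Col4a1, the ubiquitous α1 chain, was at 315, 348, 534, 542 and 461 in naive kidneys. It was at 1339, 1203, 1642 and 1313 in Dex and at 627, 1329, 1174, 996 and 1357 in Vehicle kidneys at 120 h, all above naive. Col4a1 rose by 1.63 ± 0.26 (3.10-fold, adjusted p = 0.000167) and 1.27 ± 0.25 (2.41-fold, adjusted p = 0.00224). It was already called at 24 h in the Dex group (1.01 ± 0.25, adjusted p = 0.00368) and the VPA group (1.12 ± 0.25, adjusted p = 0.00069), and in Vehicle kidneys at 24 h it passed the adjusted p at 0.86 ± 0.26.

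Its partner Col4a2 followed the same order of groups. From 309, 421, 488, 462 and 521 in naive kidneys it stood at 1082, 1300, 1354 and 1176 in Dex kidneys at 120 h (1.46 ± 0.25, adjusted p = 0.000225), again with no overlap. Vehicle kidneys at 120 h were at 497, 1226, 1130, 919 and 1149 (1.09 ± 0.23, adjusted p = 0.00475), with replicate 1 inside the naive range. The second Col4a2 probe set gave 1.57 and 1.15 for these 2 comparisons.

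Col4a3, the α3 chain of the mature glomerular network, moved the other way. It was at 921, 659, 844, 727 and 810 in naive kidneys and at 488, 250, 223 and 319 in Vehicle kidneys at 24 h, with no overlap (-1.32 ± 0.36, 2.49-fold lower, adjusted p = 0.00534). VPA kidneys at 24 h were at 285, 783, 316, 230 and 244, where replicate 2 alone lay within the naive range (-1.21 ± 0.34, adjusted p = 0.00549). Dex kidneys at 120 h were at 271, 576, 287 and 371, all below naive (-1.10 ± 0.36, adjusted p = 0.0223). These 3 changes were the called ones, and the other 6 comparisons of Col4a3 with naive gave -0.59 to -0.87.

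Col4a4, the α4 chain that trimerizes with α3 and α5, was at 794, 676, 657, 662 and 735 in naive kidneys. It was at 344, 596, 305, 267 and 251 in VPA kidneys at 24 h (-1.03 ± 0.29, adjusted p = 0.00551) and at 242, 505, 264 and 329 in Dex kidneys at 120 h (-1.09 ± 0.31, adjusted p = 0.00948), below naive in every rat. Vehicle and Dex kidneys at 24 h, at -0.98 ± 0.31 and -0.99 ± 0.29, passed the adjusted p (0.0143 and 0.0138) just short of 2-fold. At 3 h the change was -0.29, -0.10 and -0.15 in Vehicle, Dex and VPA kidneys.

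Col4a5, the α5 chain of that network, was called nowhere, with changes of -0.47 (VPA 24 h, adjusted p = 0.0356) to 0.33 (Dex 120 h). Col4a6, the α6 chain, was dim and steady, at 15.0 to 50.8 over all arrays, and was not tested. Podocytes are the source of the α3, α4 and α5 chains in the glomerulus. Of 4 podocyte markers on the array, Podxl and Synpo were tested and Nphs1 and Wt1 were too steady to be, and 0 were called in any comparison with naive at 24 or 120 h. Their summed signal was 1486 to 1886 in naive, 1412 to 2204 in Vehicle 24 h and 1358 to 1724 in Dex 120 h kidneys, beside a sum of 5 proximal tubule markers of 14234 to 17129, 5277 to 14665 and 10395 to 13132. The part of either cell type in the type IV values was not tested.

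Among Vehicle and VPA kidneys at 120 h, the arrays of low Havcr1 held the lowest Col4a1 and the highest Col4a3 of their groups. In VPA kidneys at 120 h, replicates 2 and 3 had Col4a1 at 532 and 503 and Col4a3 at 895 and 915. Replicates 1 and 4 had Col4a1 at 1632 and 1270 and Col4a3 at 345 and 156. With all 4 rats Col4a1 changed by 0.98 ± 0.26 and Col4a3 by -0.75 ± 0.36, neither called. In the fit without the arrays of low Havcr1 in any group, which kept replicates 1 and 4 here, both were called. The values were 1.71 (adjusted p = 1.34e-06) and -1.69 (adjusted p = 0.000144). That fit was chosen after seeing the data. Replicates 1 and 4 were kept by their Havcr1, which went with both chains in this group, so these p-values cannot be taken at face value. Vehicle 120 h replicate 1 had Col4a3 at 866 and Col4a4 at 823, against 331 to 463 and 289 to 396 in the other 4.

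**Figure D3:**
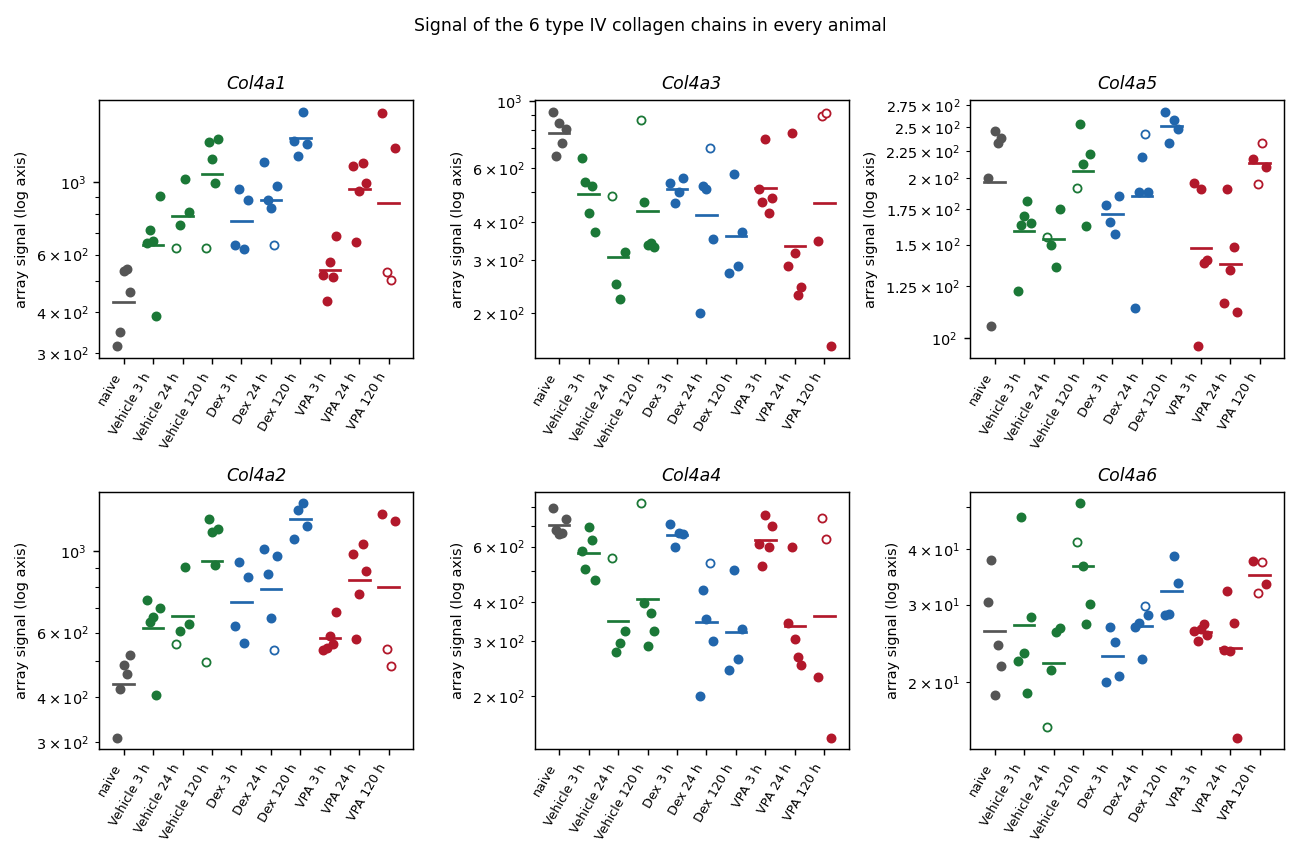
Signal of the 6 type IV chains in each rat on log axes that differ in range between panels, with group means as lines and the arrays of low Havcr1 as open points. In all 9 IR groups the means lie above naive for Col4a1 and Col4a2 (left panels) and below it for Col4a3 and Col4a4 (middle panels), while the groups overlap naive for Col4a5 and Col4a6 (right panels).

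Type VI collagen forms beaded microfibrils around cells and was among the first to be called. Col6a1, its α1 chain, was tightly grouped in naive kidneys at 320, 252, 274, 263 and 262. At 24 h it was at 415, 699, 585 and 651 in Vehicle, at 725, 830, 746, 494 and 746 in Dex and at 694, 503, 727, 807 and 660 in VPA kidneys, above naive in every rat. Col6a1 was called higher at 24 h in Vehicle (1.03 ± 0.28, adjusted p = 0.00463), Dex (1.30 ± 0.26, adjusted p = 0.000933) and VPA kidneys (1.25 ± 0.26, adjusted p = 0.000471). It was called in the 3 groups at 120 h as well, at 1.20, 1.44 and 1.25 in Vehicle, Dex and VPA kidneys, and at 1.51 in Vehicle and 1.68 in VPA kidneys without the arrays of low Havcr1.

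At 120 h the exceptions for Col6a1 were Vehicle replicate 1, at 269 against 705 to 932 in the other 4, and VPA replicate 2, at 301 against 812 to 982 in the other 3. Col6a3, the long α3 chain, was called higher at 24 h in Vehicle (1.01 ± 0.31) and VPA kidneys (1.30 ± 0.29) and at 120 h in Vehicle (1.02 ± 0.29) and Dex kidneys (1.29 ± 0.31). Col6a2 was called at 24 h in the Dex group (1.11 ± 0.28) and the VPA group (1.02 ± 0.28) and at 120 h in Vehicle (1.08 ± 0.28) and Dex kidneys (1.27 ± 0.30). Col6a6, an alternative long chain, was called in Dex kidneys at 120 h alone (1.17 ± 0.28, adjusted p = 0.00307), from 246, 199, 376 and 229 against 70.1 to 143 in naive.

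Col8a1, a short-chain collagen of vessel walls and other subendothelial matrix, had the largest change of any member in each of the 3 groups at 120 h. It was nearly dark in naive kidneys, at 32.7, 10.6, 17.6, 29.7 and 13.4. At 24 h it was at 41.7, 140, 99.6 and 146 in Vehicle and at 143, 43.2, 131, 113 and 69.3 in VPA kidneys. At 120 h it was at 218, 162, 255 and 219 in Dex, at 23.5, 284, 175, 96.8 and 281 in Vehicle and at 250, 41.5, 185 and 159 in VPA kidneys. Only Vehicle 120 h replicate 1 fell within the naive range. Col8a1 rose by 2.66 ± 0.44 (6.33-fold, adjusted p = 0.000193) in Dex, 2.07 ± 0.41 (4.19-fold, adjusted p = 0.00307) in Vehicle and 2.09 ± 0.44 (4.25-fold, adjusted p = 0.0303) in VPA kidneys at 120 h. It was also called at 24 h in Vehicle (1.67 ± 0.44), Dex (1.34 ± 0.41) and VPA kidneys (1.60 ± 0.41). Leaving out the arrays of low Havcr1, the changes of Col8a1 at 120 h were 2.55 ± 0.32 in Vehicle and 2.59 ± 0.40 in VPA kidneys. As its naive signal is close to the offset, these folds understate the ratio of the signals. The other short-chain genes, Col8a2 and Col10a1, were too steady to be tested.

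Col7a1 forms the anchoring fibrils beneath stratified epithelia and was dim here, at 6.2 to 37.5 in naive kidneys. It was called higher at 24 h in the Dex group (1.15 ± 0.32, adjusted p = 0.00926) and the VPA group (1.39 ± 0.32, adjusted p = 0.00108) and at 120 h in Dex kidneys (1.20 ± 0.34, adjusted p = 0.00955). The VPA 24 h values were 81.2, 47.5, 68.8, 88.9 and 125, all above naive. Krt14, a keratin of basal skin cells and the 1 skin marker of 3 that was variable enough to be tested, was called higher at 24 h in Vehicle and VPA kidneys, and its part in Col7a1 was not tested.

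The multiplexins, types XV and XVIII, bridge basement membranes and the matrix beneath. Col15a1 was at 214, 165, 220, 189 and 213 in naive kidneys. At 24 h Vehicle kidneys were at 195, 380, 496 and 451 and VPA kidneys at 662, 271, 578, 367 and 468, of which the VPA group was called (1.11 ± 0.36, adjusted p = 0.0150). Dex kidneys at 24 h spread widely, at 576, 205, 149, 36.6 and 179, with replicate 4 far below naive. By 120 h Dex kidneys were at 561, 563, 712 and 501 (1.47 ± 0.38, adjusted p = 0.00524) and Vehicle kidneys at 246, 583, 609, 269 and 631 (1.06 ± 0.36, adjusted p = 0.0447), all above naive. The Vehicle call of Col15a1 was lost when any of 8 of its 10 arrays was left out, and with no SD filter, an analysis of variance, a pseudocount of 1 or quantile normalization. It was 1.25 ± 0.26 without the arrays of low Havcr1. Col18a1, whose end fragment is endostatin, passed the adjusted p without reaching 2-fold in Vehicle, Dex and VPA kidneys at 24 h (0.83, 0.61 and 0.99) and in Vehicle and Dex kidneys at 120 h (0.90 and 0.88).

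Col17a1, a membrane-spanning chain of hemidesmosomes, was the 1 chain called lower at 3 h. In naive kidneys it was at 151, 155, 100, 97.7 and 169. At 3 h it was at 31.9, 65.5, 61.4, 51.5 and 59.0 in Vehicle, at 74.4, 55.2, 59.7 and 51.5 in Dex and at 68.9, 60.4, 53.5, 39.0 and 44.6 in VPA kidneys, all below naive. Col17a1 was called lower in Vehicle (-1.10 ± 0.26, adjusted p = 0.00187) and VPA kidneys (-1.11 ± 0.26, adjusted p = 0.00279), and in Dex kidneys the change of -0.96 ± 0.27 passed the adjusted p (0.00921) alone. The Vehicle call at 3 h was lost without replicate 1, the lowest of its group (31.9). The lowest mean was in Dex kidneys at 24 h (-1.45 ± 0.26, adjusted p = 0.000442). It was also called in Vehicle kidneys at 24 h (adjusted p = 0.00522, lost when any of 5 of 9 arrays was left out) and 120 h (-1.07 ± 0.26), with 1 of 4 Vehicle kidneys at 24 h, replicate 2 at 103, inside the naive range. Its change was -0.68 ± 0.26 in VPA kidneys at 24 h, -0.80 ± 0.27 in Dex and -0.57 ± 0.27 in VPA kidneys at 120 h, none of them called. The remaining membrane-spanning genes, Col13a1 and Col23a1, were called nowhere.

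**Figure D4:**
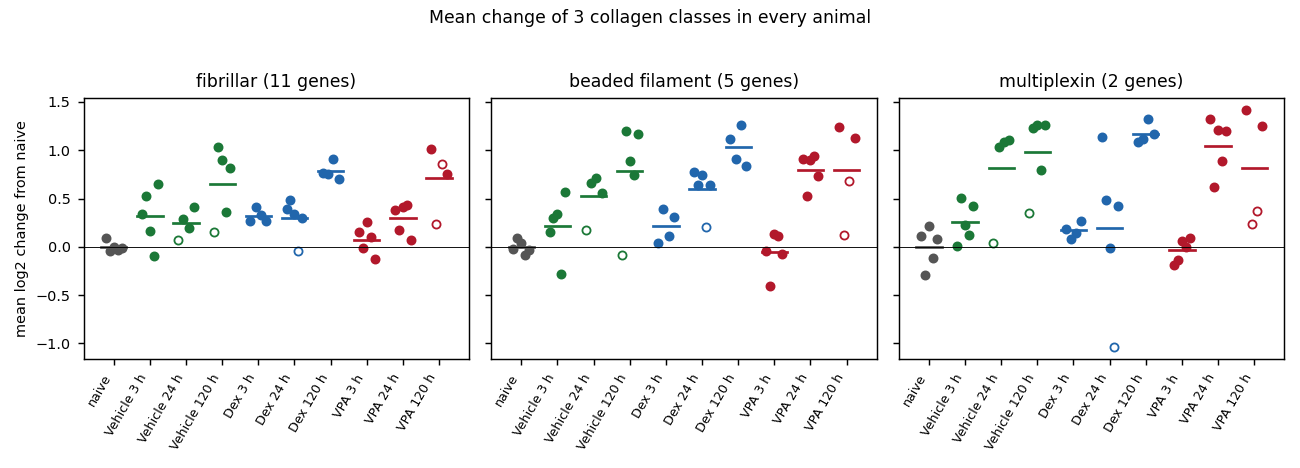
Mean log2 change from naive over the genes of 3 classes (11 fibrillar, 5 beaded filament and 2 multiplexin) in each rat, with group means as lines and the arrays of low Havcr1 as open points. The fibrillar mean of VPA 120 h replicate 3 (0.86) lay near that of replicates 1 and 4 (1.01 and 0.75), while its multiplexin mean (0.37) lay near that of replicate 2 (0.23).

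Within the VPA group at 120 h the classes came apart in 1 rat. Replicate 3, with Havcr1 at 72.5 and Lcn2 at 179, had Col1a1 at 2096 and Col3a1 at 2456, among the highest of all 46 arrays, yet Col4a1 at 503 and Col15a1 at 281. Replicate 2, with Havcr1 at 95.7 and Lcn2 at 163, was low in all of them, with Col1a1 at 749. Vehicle 120 h replicate 4, with Havcr1 at 4236, had Col4a1 at 996 and Col7a1 at 111 but Col15a1 at 269, Col1a1 at 570, Col3a1 at 622 and Col14a1 at 76.1. A sum of 5 fibroblast markers was 6262 and 4243 in VPA replicates 3 and 2 and 3176 in Vehicle replicate 4, within 3338 to 5799 in naive apart from the first and last of these, and its part in the fibrillar values was not tested.

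Whether Dex or VPA changed the collagens was addressed by comparing them with Vehicle at the same time, and 0 collagen genes were called in any of the 6 comparisons. The background was 0.171%, 0.116% and 0% of probe sets for Dex at 3, 24 and 120 h and 0.0548%, 0% and 0% for VPA. At an unadjusted p under 0.05 there were 3, 3 and 4 of 40 genes for Dex and 6, 0 and 1 for VPA. Of the 14607 tested probe sets, 880, 1404 and 892 were at that p for Dex and 1459, 978 and 634 for VPA. The collagen counts are thus not read as a result about these genes. The intervals leave room for effects. At 120 h the difference of Dex from Vehicle was 0.36 for Col1a1 (95% interval -0.44 to 1.15), 0.60 for Col8a1 (-0.29 to 1.48) and 0.36 for Col4a1 (-0.16 to 0.89). VPA differed from Vehicle by 0.57 for Col1a1 (-0.23 to 1.36), 0.02 for Col8a1 (-0.87 to 0.91) and -0.29 for Col4a1 (-0.81 to 0.24). So a 2-fold difference, 1 on this scale, lay within the interval for Col1a1 with either treatment.

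The largest differences from Vehicle were at 24 h in Dex kidneys. Col15a1 differed by -1.02 (-1.78 to -0.25, adjusted p = 0.332), and by -0.84 without the 5 arrays of low Havcr1, among them Dex replicate 4 (36.6), and Col11a1 by 0.89 (0.37 to 1.41, adjusted p = 0.180). Neither was called, although without the arrays of low Havcr1 Col11a1 was (1.15, adjusted p = 0.0462, 1 of 28 tested members, background 0.185% higher and 0.00685% lower). Col11a1 also differed by 0.77 (0.25 to 1.29) between Dex and Vehicle at 3 h, with an adjusted p of 0.304.

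Between 24 and 120 h a set of collagen genes rose in Dex kidneys, where 7 were called higher at 120 h than at 24 h (background 2.14%) and 0 lower (4.17%). They were Col14a1 (1.72 ± 0.50), Col15a1 (1.68 ± 0.38), Col6a6 (1.46 ± 0.28), Col8a1 (1.32 ± 0.44), Col1a1 (1.16 ± 0.39), Col24a1 (1.15 ± 0.28) and Col1a2 (1.06 ± 0.31). The count ran from 3 to 7 as single arrays were left out, and was 3 without Dex 24 h replicate 4 or without Dex 120 h replicate 3. With the 5 arrays of low Havcr1 left out together it was 5, and Col1a1 and Col1a2 were lost. Vehicle kidneys had 1 gene called higher (0.0616%) and 0 lower (0.164%), and VPA kidneys 1 higher (0.0822%) and 0 lower (0.267%), in both cases Col11a1, at 1.06 ± 0.26 and 1.15 ± 0.26. The Vehicle call was lost when any of 7 of its 9 arrays was left out, the VPA call when any of 6 of 9 was. Without the 5 arrays together VPA kidneys had 2 calls, Col11a1 and Col24a1 (1.42). Whether the change from 24 to 120 h differed from that of Vehicle was tested directly, and 0 collagen genes were called for Dex (0% of all probe sets, 5 of 40 genes at an unadjusted p under 0.05) and 0 for VPA (0%, 0 genes at that p). Of the 14607 tested probe sets, 1917 were at that p for Dex and 457 for VPA. The Dex increases were thus not shown to differ from those of Vehicle.

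The enzymes that fold, trim and crosslink collagen were measured beside it. Of 29 such genes, 24 of them tested, 7 were called higher in Dex kidneys at 120 h (4.76% of all tested probe sets were), 2 in Vehicle (1.83%) and 2 in VPA kidneys (0.493%), and 0 lower. Lox, the lysyl oxidase that crosslinks fibrils, was called higher in 8 of the 9 comparisons with naive, from 1.13 ± 0.30 in Vehicle kidneys at 3 h to 2.50 ± 0.32 in Dex kidneys at 120 h. Its signal was 69.7 to 122 in naive, 105 to 399 in Vehicle 3 h and 435 to 622 in Dex 120 h kidneys. Serpinh1, the collagen chaperone HSP47, rose at 3 h, by 1.36 ± 0.21 in Vehicle (adjusted p = 9.1e-06) and 1.40 ± 0.22 in Dex kidneys (adjusted p = 9.33e-06). The collagens were not called higher at that time, though 4 of them in Dex and 0 in Vehicle kidneys passed the adjusted p upward below 2-fold. P4ha1, a prolyl hydroxylase subunit, was called at 3 h only, in Vehicle (1.07 ± 0.16) and Dex kidneys (1.18 ± 0.17). Among the other genes called in Dex kidneys at 120 h were the procollagen proteinases Bmp1 (1.28 ± 0.24) and Adamts2 (1.27 ± 0.28).

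Of 14 small proteoglycans and fibril partners, 12 of them tested, 3 were called higher (background 4.76%) and 1 lower (3.73%) in Dex kidneys at 120 h. Fn1 (fibronectin) was called higher at 120 h in Vehicle (1.11 ± 0.30), Dex (1.57 ± 0.32) and VPA kidneys (1.19 ± 0.32). Aspn (asporin) was called lower in Vehicle, Dex and VPA kidneys at 24 h (-1.37, -1.38 and -1.66) and in Dex kidneys at 120 h (-1.63). Of 9 collagen receptors, 8 of them tested, Lair1 alone was called against naive, lower in Dex kidneys at 3 and 120 h (-1.15 and -1.03, background 0.657% and 3.73%). Of 15 genes of collagen turnover, 13 of them tested, Timp1, an inhibitor of collagenases, was called higher in 7 of the 9 comparisons, with 3.29 ± 0.54 in Vehicle and 3.31 ± 0.51 in VPA kidneys at 24 h. The neutrophil collagenase gene Mmp8 was called higher in Vehicle kidneys at 3 h (1.73 ± 0.32) and 24 h (1.12 ± 0.34). Mmp3 was called higher in the same 2 groups and in VPA kidneys at 24 h. In Dex kidneys at 120 h Ctsk was called higher and Timp3 lower. The share called higher over all tested probe sets was 3.18% in Vehicle 3 h, 4.79% in Vehicle 24 h and 5.92% in VPA 24 h kidneys.

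Markers of cells that make or surround collagen moved unevenly. Of 5 fibroblast markers (Pdgfra, Dcn, Lum, Dpt and Thy1, of which Dcn and Lum are also on the list of fibril partners) 0 were called at 24 or 120 h, with a summed signal of 3338 to 5799 in naive and 4038 to 6574 in Dex 120 h kidneys. Of 4 myofibroblast and pericyte markers only Tagln was called, in Vehicle and VPA kidneys at 24 h and in Vehicle and Dex kidneys at 120 h (1.71 ± 0.32 in the last). Their sum was 914 to 1509 in naive, 2171 to 2502 in Dex 120 h, 1036 to 2573 in Vehicle 120 h and 1140 to 2873 in VPA 120 h kidneys. The sum of 5 macrophage markers was 740 to 852 in naive, 724 to 2226 in Vehicle 120 h, 1715 to 2737 in Dex 120 h and 791 to 4521 in VPA 120 h kidneys. In Dex 120 h kidneys 4 of the 5 were called higher (background 4.76%), and Msr1 was called in each of the 6 groups at 24 and 120 h. Over all tested probe sets, 0.493% (VPA 120 h) to 5.92% (VPA 24 h) were called higher in these 6 groups. The share called lower was 0.192% (VPA 120 h) to 4.23% (Vehicle 24 h). Of 3 endothelial markers, 2 of them tested, 0 were called at 24 or 120 h. Adipocyte (4 of 5 tested) and striated muscle markers (2 of 3 tested) were not called higher against naive at 24 or 120 h, and Cidec, an adipocyte gene, was called lower in 3 groups. The part of these cells in the collagen values was not tested.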

How the data were processed

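Kidney RNA was hybridized to Affymetrix Rat Gene 1.1 ST arrays in 46 rats of 10 groups. The deposited values are linear signal intensities that the authors summarized with iterPLIER and normalized between arrays in Affymetrix Expression Console 1.1, with neither offset nor log. From there, 16 was added, log2 was taken, the 50% of probe sets with the lower SD were removed as in the study's methods, and 1 linear model over the 10 groups was fitted with limma 3.58.1 in R 4.3.3 (36 residual and 4.44 prior degrees of freedom). p-values were adjusted by Benjamini-Hochberg over 14607 probe sets, in 20 comparisons. A 2-fold change and an adjusted p under 0.05 made a call. Genes were named from the platform annotation, in which 18644 probe sets have 1 symbol, 962 several and 9608 none. Genes named are those called in any comparison, with the chains of types I, III and IV and members that lack a call. The collagens, the marker and pathway lists and the alternatives were chosen with earlier results of these data known. Arrays correlated at 0.831 to 0.993, so no array was a copy of another. The number of arrays limits the precision. Samples with the same replicate number did not deviate together, so they were not treated as pairs. The limma code was tested on simulated data. 9 alternatives were planned, and leaving out the 5 arrays of low Havcr1 was added after seeing the data.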

Additional observations from a re-analysis of the deposited data

Results flagged for a closer look

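In each group of 4 or 5 rats, the lead chains and the mean change over all 40 collagen genes were searched for a rat that stood apart by Dixon's criterion. Of 140 such groups 11 held one, where chance gives about 7. All values here are log2(signal + 16) unless said otherwise.

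Dex 24 h replicate 4, an array of low Havcr1, stood apart in 4 of them. It was low in Col1a1 (8.22, next rat 9.25), in Col1a2 (9.35, next rat 10.1) and in Col6a1 (8.99, next rat 9.53). Its mean change from naive over the 40 genes was 0.0167, against 0.273 in the next rat. Col6a1 was low in 2 more arrays of low Havcr1, Vehicle 120 h replicate 1 (8.16, next rat 9.49) and VPA 120 h replicate 2 (8.31, next rat 9.69).

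Col4a3 was high in VPA 24 h replicate 2 (9.64, next rat 8.37), whose Havcr1 was not low. Col4a2 was low in Vehicle 3 h replicate 4 (8.72, next rat 9.36). Col8a1 was low in Dex 3 h replicate 4 (5.01, next rat 5.30), and Col15a1 in VPA 3 h replicate 2 (7.10, next rat 7.44). The mean change over the 40 genes was highest among naive rats in replicate 1, at 0.0826 against -0.0125 in the next.

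Col28a1, which was too steady to be tested, was picked by a search for differences between groups. Its mean signal, 15.5, was below the offset of 16 and below the lower quartile of every array (19.9 to 37.6), so it lay near the floor. At 3 h its mean change from naive was positive in Dex and negative in Vehicle kidneys. Every Dex rat lay above the naive mean, by 0.25 on average, and every Vehicle rat below it, by -0.37 on average. The difference was not tested.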

How the results depend on the processing

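Of 71 calls of a collagen gene in a comparison, 0 changed direction under any of the other settings given here. Without the SD filter 13 were lost, under the methods' analysis of variance 14, with a pseudocount of 1 in place of 16 8, with quantile normalization 13, with only the groups compared 11, and with all probe sets of a gene averaged 0. VPA 120 h against naive was the least stable, with 8 calls becoming 0 without the SD filter, 0 under the analysis of variance, 0 with only the groups compared, 5 with a pseudocount of 1 and 3 with quantile normalization. Without a fold threshold the counts against naive were 12 for Vehicle 24 h, 17 for Vehicle 120 h, 5 for Dex 3 h, 14 for Dex 24 h and 17 for VPA 24 h. Dex 3 h, with 0 calls, had 2 with a pseudocount of 1 and 1 with quantile normalization, and Dex against Vehicle at 3 h had 1 with a pseudocount of 1. The single call of Vehicle 120 h against 24 h became 0 without the SD filter, under the analysis of variance, with a pseudocount of 1, with quantile normalization and with only the groups compared. That of VPA 120 h against 24 h became 0 without the SD filter, under the analysis of variance, with a pseudocount of 1 and with only the groups compared. The cause of these changes was not tested.

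The replicate numbers do not pair the samples: 78 of 195 pairs of the same number deviated together with a correlation over 0.1 (median 0.01, against -0.01 for other numbers). A fit with the replicate block lost 1 of the 71 calls. It gave 1 call for Dex 3 h against naive, 0 for VPA 120 h against 24 h and 11 for VPA 120 h against naive.

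As single arrays were left out, the calls against naive ran from 1 to 2 for Vehicle 3 h, 3 to 10 for Vehicle 24 h, 4 to 21 for Vehicle 120 h, 0 to 2 for Dex 3 h, 5 to 9 for Dex 24 h, 17 to 21 for Dex 120 h, 1 to 1 for VPA 3 h, 7 to 12 for VPA 24 h and 0 to 16 for VPA 120 h. They ran from 0 to 2 for Dex against Vehicle at 24 h, 0 to 1 for Vehicle 120 h against 24 h, 3 to 7 for Dex and 0 to 2 for VPA in the same contrast, and stayed at 0 elsewhere. The 16 calls of VPA 120 h came without replicate 2. Without the 5 arrays of low Havcr1, a setting chosen after seeing the data, the counts were 11 for Vehicle 24 h, 21 for Vehicle 120 h and 20 for VPA 120 h against naive, 1 for Dex against Vehicle at 24 h and 2 for VPA 120 h against 24 h.

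The number of rats (4 or 5 a group), the uneven injury within groups and an offset near the signals of Col8a1, Col7a1 and Col24a1 limit what these arrays can show.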
